A study of Homo sapiens with 24 samples.

Results

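The SR proteins and heterogeneous nuclear ribonucleoproteins (hnRNPs) are the main families of RNA-binding proteins that decide which exons an mRNA keeps. They were taken here as every gene symbol made of SRSF and a number or of HNRNP and a suffix, without pseudogene rows, together with TRA2A, TRA2B, PTBP1, PTBP2 and PTBP3. This gave 42 of the 38849 genes in the deposited table, of which 37 passed a mean normalized count of 10 and were tested among 12096 genes. The tested members were 11 SR family genes, 2 TRA2 genes, 3 polypyrimidine tract-binding (PTB) genes and 21 hnRNP genes. The cells were HMLE, an immortalized human mammary epithelial line, and carried either RBMS3, an RNA-binding protein linked to RNA stability, or LacZ, a bacterial enzyme gene that served as the control. Both lines received actinomycin D, which stops transcription, at 10 µg/mL for 0, 90, 180 or 360 min, with 3 libraries for each line and time, 24 in all. Sequencing was by QuantSeq, a method that places its reads near the poly(A) tail. The study asked which transcripts differ in stability with RBMS3, and the labels name neither the promoter of the transgenes nor separate cultures behind the replicates, so p-values measure the spread between libraries, which may be technical.

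SR proteins bind exonic enhancers through RNA recognition motifs and recruit the splicing machinery through their arginine- and serine-rich domain, which SRPK and CLK kinases phosphorylate. Many hnRNPs bind silencers and oppose them, and PTB proteins bind pyrimidine tracts and repress exons. Many genes of these families regulate their own level by splicing in an exon with a premature stop codon, which sends the transcript to nonsense-mediated decay, or by switching between 3' ends. In epithelial cells that turn mesenchymal, the balance of such regulators is known to shape alternative exons in adhesion and cytoskeletal genes.

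Nearly every member was expressed. Mean normalized counts over 24 libraries ran to 8495 for HNRNPK, a binder of C-rich RNA, 5764 for HNRNPC, which covers U-rich tracts, and 5242 for HNRNPA1, an exon silencer. At the other end of the tested genes stood HNRNPLL (111), PTBP2, the neuronal PTB protein (40.5), and HNRNPA1L2, an HNRNPA1-like gene (13.1). These values are not per length, so they order genes only roughly. SRSF12 averaged 7.18, and HNRNPCL1, HNRNPCL3 and HNRNPCL4 averaged 0.408, 0.0409 and 0.961, all under the limit for testing, while HNRNPCL2 was listed at 0 in all 24 libraries. The summed members made up 1.15% to 1.19% of all normalized counts in RBMS3 cells and 1.33% to 1.48% in LacZ cells at 0 min, and 0.959% to 0.977% in RBMS3 cells and 1.07% to 1.10% in LacZ cells at 360 min. The 1.48% came from LacZ replicate 2, beside 1.33% and 1.35% in replicates 1 and 3. These shares do not show a fall of the whole family with time. Member sums of RBMS3 libraries were 78921 to 81545 at 0 min and 75895 to 78913 at 360 min. Those of LacZ libraries were 88438 to 104636 at 0 min and 83051 to 85392 at 360 min. The sums were thus lower at 360 min without overlap in both lines. Total counts rose from at most 6908351 to at least 7875078 in RBMS3 libraries, and from at most 7057240 to at least 7638907 in LacZ libraries. HNRNPA1 fell from a mean of 9461 to 2921 in RBMS3 cells, and from 10578 to 3728 in LacZ cells. The median log2 change of a member was -0.016 for RBMS3 and 0.003 for LacZ. In bulk RNA, a share of the library cannot tell less RNA per cell from fewer cells with that RNA.

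The 24 libraries held 4426445 to 9856338 estimated reads. The RBMS3 gene stood at 174 to 358 normalized counts in RBMS3 libraries and 27.6 to 165 in LacZ libraries, with no overlap. Summed normalized counts of 11 mammary epithelial markers were 4564 to 14542 in RBMS3 libraries and 20546 to 26191 in LacZ libraries, and those of 8 mesenchymal markers were 38521 to 52019 in RBMS3 libraries and 7453 to 10238 in LacZ libraries. A list of 10 leukocyte and endothelial markers summed to 16.2 to 57.1 in RBMS3 libraries and 30.7 to 91.5 in LacZ libraries, with CD3E and CDH5 among those at 0 throughout. The part of this epithelial to mesenchymal difference in the line differences below was not tested. For 12 of 24 samples the attached transcript file carried the name of another sample, so those 12 files gave no result below, and table columns were matched to samples by title. The replicates of LacZ at 0 min were less alike than those of other groups (Pearson r down to 0.909 across genes, against 0.937 or more elsewhere). This r is the lowest of each library with its partners, so it could not have singled out 1 of them. Replicate 2 stood apart by the short transcript lengths given below, and results that rest on it are given with and without it.

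The table was not a plain read count. In the 12 libraries with an undisputed transcript file (LacZ at 0 min; RBMS3 at 90, 180 and 360 min), the factor between the table and the estimated reads followed the inverse of the mean effective length of the transcripts that Salmon used for a gene. Over the 34 members with more than 50 reads in all 12 libraries, the product of factor and mean length varied by a CV of at most 0.16% in 30. The exceptions were HNRNPA1, HNRNPA3, HNRNPR and SRSF6, for which the match of transcripts to the reference annotation did not recover the table's reads to within a CV of 1%. HNRNPA2B1 could not be traced at all: 13 to 703 matched reads stood behind its table values, with a factor range of 72.4-fold. A shift of 3' reads between annotated short and long transcripts therefore moved a normalized count with no change in the number of reads. The factor ranged over a median of 1.48-fold across libraries in these members and 1.22-fold in 6441 genes, and it exceeded 1.5-fold in 17 of the 34 members and 35.2% of these genes. In the other 12 libraries the factor was not measured. In 15 members it varied by at most 1.20-fold (HNRNPDL), the next members being at 1.37-fold (HNRNPUL1) or more, and with a limit chosen after seeing the data these are called steady below: HNRNPA0, HNRNPAB, HNRNPDL, HNRNPF, HNRNPH2, HNRNPK, HNRNPUL2, PTBP1, PTBP3, SRSF2, SRSF4, SRSF6, SRSF8, SRSF9 and TRA2A.

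The shift was large in several splicing factors. For HNRNPH1, which binds runs of G, the mean effective length was 1968 to 2036 bases in the 9 RBMS3 libraries and 1974, 351 and 1993 bases in LacZ replicates 1, 2 and 3 at 0 min. In that LacZ replicate 2, 19.9% of HNRNPH1 reads went to a retained-intron transcript of 580 bases that took 0.0% in the 11 other libraries. SRSF1, the prototype SR protein, spanned 2097 to 4731 bases in RBMS3 libraries and had 540 bases in the same LacZ replicate. Among the 16 members with complete reads outside the steady set, LacZ replicate 2 at 0 min had the shortest length in 13. SRSF3, a small SR protein that also serves mRNA export, and TRA2B, which favours exons with GAA-rich enhancers, lengthened with time in actinomycin D. SRSF3 had 2119, 2094 and 2585 bases at 90 min, 2713, 2651 and 2920 bases at 180 min, and 3675, 3319 and 2948 bases at 360 min in RBMS3 cells. TRA2B had 1479, 1787 and 2061 bases at 90 min, 1721, 2094 and 1732 bases at 180 min, and 2211, 2886 and 2333 bases at 360 min in RBMS3 cells, against 956, 653 and 1060 bases in LacZ cells at 0 min. The groups at 360 and 90 min did not overlap for either gene.

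**Figure D1:**
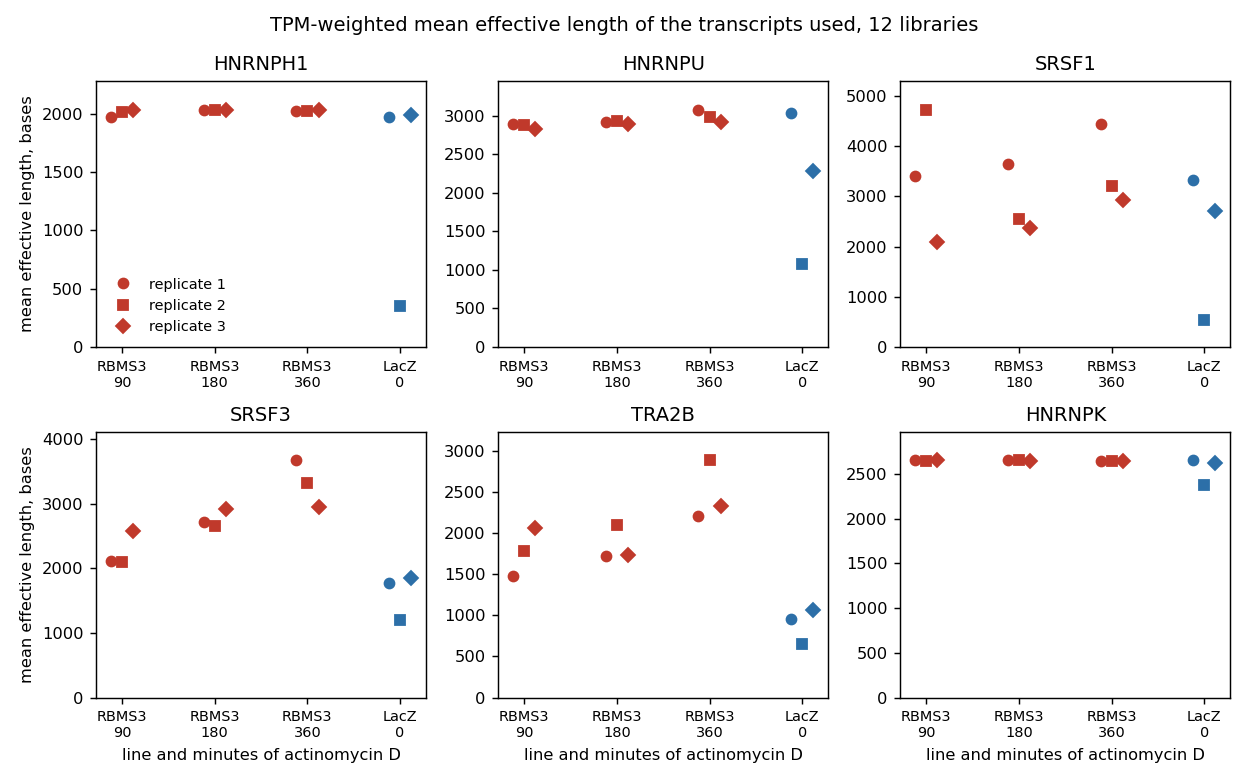
Mean effective length (bases, from 0) of the transcripts assigned to each of 6 members, weighted by TPM, in the 12 libraries with an undisputed transcript file, with RBMS3 cells in red, LacZ cells in blue and a symbol for each replicate. HNRNPH1 was at 351 bases and SRSF1 at 540 bases in LacZ replicate 2 at 0 min, SRSF3 and TRA2B were longest in RBMS3 cells at 360 min, and HNRNPK hardly varied.

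Before actinomycin D, RBMS3 cells had lower normalized counts than LacZ cells for 11 members and higher ones for 2, by limma at an adjusted p under 0.05. These 13 calls are 35.1% of 37 members, beside 37.5% of all genes tested (18.6% higher, 18.9% lower), so the family was called about as often as other genes. The median size of the difference was 0.32 on the log2 scale in members and 0.517 in all genes. Of the calls, 7 were among the 15 steady members (51.2% of all genes with a steady factor were called) and 6 among the other 22. Without LacZ replicate 2 at 0 min, 16 members were called, 5 higher and 11 lower. Scaling to 79 ribosomal protein genes moved the median of all genes by -0.333 and gave 1 higher and 19 lower.

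Among the SR family, 1 member was higher and 1 was lower in RBMS3 libraries before treatment. SRSF4, a longer SR protein with paired RNA recognition motifs, had 852, 857 and 793 normalized counts in RBMS3 cells, against 1103, 1227 and 1111 in LacZ cells. SRSF4 was lower without overlap (log2 difference -0.46, SE 0.085, limma adjusted p 0.000214). At 360 min SRSF4 had 525, 580.1 and 503 in RBMS3 cells and 738, 806 and 752 in LacZ cells, a log2 difference of -0.52. It was called lower at all 4 times, with log2 differences of -0.31 at 90 min and -0.34 at 180 min. SRSF6, a close relative of SRSF4, had 1408, 1223 and 1188 in RBMS3 cells and 963, 996 and 1032 in LacZ cells at 0 min. That was higher in RBMS3 cells by 0.35 (SE 0.077, limma adjusted p 0.00114), a call that was lost when the table was scaled to ribosomal protein genes, and SRSF6 was not called at a later time. SRSF3 did not differ by the test at 0 min, with 3789, 4212 and 3654 in RBMS3 cells and 3761, 4824 and 3601 in LacZ cells. After 90 min SRSF3 was lower, and at 360 min it had 1747, 1977 and 2038 in RBMS3 cells against 3668, 3142 and 2819 in LacZ cells, a log2 difference of -0.74. The table of SRSF3 moves with transcript length as described above, so this is a difference of the length-scaled value.

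SRSF10, a splicing repressor when dephosphorylated, and SRSF8 were each called at 180 min alone. SRSF10 had 737, 731 and 801 in RBMS3 cells and 1119, 1014 and 1030.3 in LacZ cells, a log2 difference of -0.48 that was lost without LacZ replicate 1 at 180 min. SRSF10 is not a steady member, with a factor that ranged over 2.56-fold. SRSF8 had 238, 241 and 277 in RBMS3 cells and 197, 175 and 172 in LacZ cells, a log2 difference of 0.47 that was lost under the ribosomal protein scaling and without any 1 of 3 libraries (RBMS3 replicate 3, LacZ replicates 2 and 3 at that time). SRSF1, SRSF2, SRSF5, SRSF7, SRSF9 and SRSF11 were called between the lines at no time, but without LacZ replicate 2 at 0 min SRSF5 was called lower at 180 min (-0.45) and SRSF11 at 90 min (-0.30). TRA2A and TRA2B were called at no time with or without that library.

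Among the PTB genes, 1 differed between the lines throughout. PTBP3, a paralog of PTBP1, had 1079.6, 883 and 881 normalized counts in RBMS3 cells at 0 min, against 1704, 1345 and 1656 in LacZ cells. All RBMS3 libraries were below all LacZ libraries (log2 difference -0.72, SE 0.1, limma adjusted p 6.84e-06). Later differences were -1.04, -1.09 and -1.14 after 90, 180 and 360 min, and at the last time PTBP3 averaged 933 ± 55.4 in RBMS3 cells and 2051 ± 90.0 in LacZ cells (SD, n = 3 each). PTBP3 kept its call at each of the 4 times under all 8 other settings and with any 1 library left out. PTBP1, the main pyrimidine-tract repressor outside neurons, was lower by 0.29 at 0 min and was not called later. PTBP2 was called at no time, with 81.0, 137 and 61.2 in RBMS3 cells at 0 min and 31.2, 91.8 and 30.3 in LacZ cells. Without LacZ replicate 2 it was called higher in RBMS3 cells at 0 min, by 1.49. PTBP2 had 0 to 29 matched reads in the 12 libraries with an undisputed transcript file, and its table values could not be traced to them.

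Of 21 hnRNP genes, 8 were lower and 1 was higher in RBMS3 libraries before treatment. The higher one was HNRNPDL, a relative of the AU-rich element binder HNRNPD, with 4939.7, 4589 and 4320.1 normalized counts in RBMS3 cells, against 2772, 2053 and 2718 in LacZ cells. Every RBMS3 library exceeded every LacZ library (log2 difference 0.89, SE 0.092, limma adjusted p 1.55e-07). By 90 min HNRNPDL had 2795, 3198 and 2824 in RBMS3 cells and 2557, 2523 and 2519 in LacZ cells, and the difference did not pass the test with all libraries. HNRNPDL was called higher in RBMS3 cells at every time when LacZ replicate 2 at 0 min was left out, by 0.75, 0.21, 0.17 and 0.22 in order of time. The later differences are small beside its length factor, which ranged over 1.20-fold and was not measured in LacZ cells after 0 min. From 90 to 360 min in RBMS3 cells HNRNPDL changed by -0.14 in the table and -0.015 in reads, neither called. HNRNPK was lower in RBMS3 cells at 0 min, with 6106, 6499.5 and 7138 against 8779.6, 7752 and 9294 in LacZ cells (log2 difference -0.39, SE 0.064). At 360 min HNRNPK had 9600.2, 9848 and 9470.0 in RBMS3 cells and 9840.3, 9298 and 9568 in LacZ cells, and the groups overlapped.

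HNRNPC was lower in RBMS3 cells at all 4 times. It had 4536, 5016 and 4545 in RBMS3 cells and 5515, 7285 and 5882 in LacZ cells at 0 min, and 4709, 5251 and 4624 in RBMS3 cells against 7274, 6728 and 6555 in LacZ cells at 360 min. The log2 differences were -0.40, -0.24, -0.42 and -0.50 in order of time, without overlap at any of them, though the call at 90 min was lost without any 1 of 5 libraries (RBMS3 replicates 1 and 2, LacZ replicates 1, 2 and 3 at that time). HNRNPC is not a steady member, so these are differences of the length-scaled value. Its mean length was 1108, 774 and 1112 bases in LacZ cells at 0 min and 1096 to 1553 bases in the 9 RBMS3 libraries. From 90 to 360 min in RBMS3 cells its table value changed by -0.10, not called, while its reads were called higher, by 0.18. HNRNPH1 had the largest difference at 0 min, -1.22, with 2061, 1764 and 2045 in RBMS3 cells and 2649, 13509 and 2645 in LacZ cells. Most of it came from LacZ replicate 2, the library with the short mean length, and without that library the difference was -0.44 and remained called. HNRNPM, which binds GU-rich RNA, had 3495, 3547 and 3128 in RBMS3 cells and 4438, 7282 and 4764 in LacZ cells, a difference of -0.66, or -0.44 without replicate 2. HNRNPU, a nuclear scaffold protein, had 3115, 3110.2 and 3165 in RBMS3 cells and 3164, 5821 and 4147 in LacZ cells, a difference of -0.44. Its call was lost without replicate 2, when the difference was -0.21. HNRNPD (-0.36) also lost its call without that library (-0.15), and without RBMS3 replicate 1 or 3 at 0 min or LacZ replicate 3 at 90 min. HNRNPM, HNRNPU and HNRNPD are not steady members either, with factors that ranged over 1.71-, 2.87- and 2.54-fold.

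HNRNPF, a G-run binder like HNRNPH1, changed direction with the same library. It had 1744, 1693 and 1887 in RBMS3 cells and 2418, 544 and 2464 in LacZ cells at 0 min. With all libraries the log2 difference was 0.26 and not called, and without LacZ replicate 2 it was -0.46 and called. Without that library HNRNPF was also called lower in RBMS3 cells at 90 min (-0.43), 180 min (-0.31) and 360 min (-0.50). HNRNPF was a steady member with a length of 2367 to 2369 bases, so its 544 came with a low number of reads in that library and not with a change of length.

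At later times fewer members were called between the lines. At 90 min, 5 members passed the test (13.5%, beside 29.8% of all genes), 1 of them higher in RBMS3 cells (14.9% of all genes were) and 4 lower (15%). At 180 min 10 passed (33.1% of all genes did), 3 higher (16.2%) and 7 lower (16.8%). At 360 min 6 passed (35.2% of all genes did), 1 higher (17.5%) and 5 lower (17.7%). The count at 90 min was 10 without LacZ replicate 2 at 0 min and 3 without LacZ replicate 1 at 90 min. With scaling to ribosomal protein genes no member was higher at 180 min and 10 were lower. HNRNPUL2, a relative of HNRNPU, was the higher member at 90 and 360 min. It had 1819.7, 1865 and 1713 in RBMS3 cells at 360 min, against 1311, 1267 and 1039 in LacZ cells, a log2 difference of 0.58 (SE 0.10), without overlap. Its call at 90 min was lost without RBMS3 replicate 3 or LacZ replicate 1 at that time. HNRNPD was lower at 180 min, with 2601, 2974 and 2822 in RBMS3 cells and 4819, 3814 and 3645 in LacZ cells, a log2 difference of -0.54, and its call at 360 min (-0.35) was lost without any 1 of 16 libraries. In all, 19 of 37 members were called between the lines at no time, and 12 without LacZ replicate 2 at 0 min. The members called only without it were HNRNPA2B1, HNRNPF, HNRNPH2, HNRNPR, HNRNPUL1, PTBP2, SRSF5 and SRSF11.

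**Figure D2:**
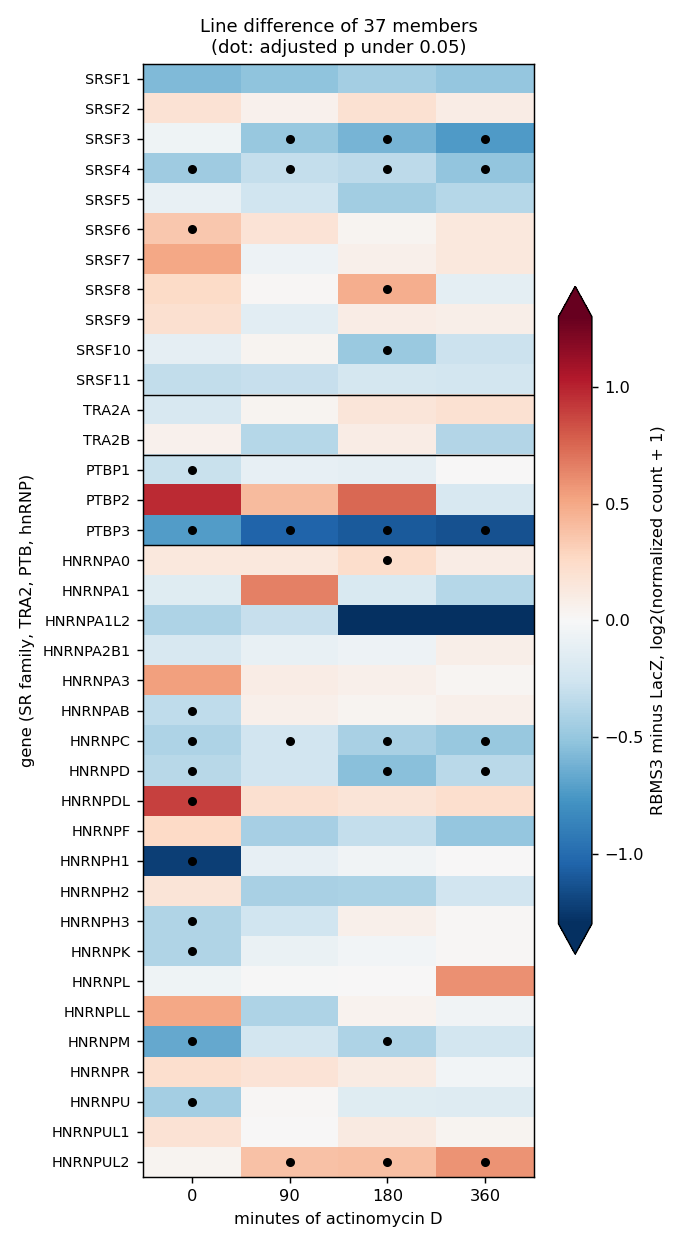
Difference in log2(normalized count + 1), RBMS3 minus LacZ, for the 37 tested members (rows, by family) at 0, 90, 180 and 360 min of actinomycin D (columns), with red for higher and blue for lower in RBMS3 cells, darkest at and beyond the ends of the bar, and a dot where the limma adjusted p is under 0.05. PTBP3, SRSF4 and HNRNPC carry a dot at all 4 times, and HNRNPDL is red with a dot at 0 min.

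Within a line, values after actinomycin D are relative to the median gene, so a gene can rise when its RNA outlasts that of the median gene. Outside the steady members a value also moves with transcript length. Among other genes, a list of labile immediate early genes checked the treatment: 10 of 11 fell by 360 min in each line, with a median log2 change of -4.62 in RBMS3 cells and -4.56 in LacZ cells. The splicing factors moved far less. In RBMS3 cells 16 members changed by 360 min, 7 higher and 9 lower, 43.2% of members beside 37.6% of all genes (19.1% higher, 18.6% lower). In LacZ cells 14 changed, 7 higher and 7 lower, 37.8% beside 28.5% of all genes (14.9% higher, 13.6% lower). The steady members held 8 of the calls in RBMS3 cells and 5 in LacZ cells, of 15, where 57.9% and 46.5% of all steady genes were called. With scaling to ribosomal protein genes the median of all genes moved by -0.393 in RBMS3 cells and -0.549 in LacZ cells, and the counts became 1 higher and 18 lower in RBMS3 cells and 0 higher and 23 lower in LacZ cells. The rises below are relative to the median gene, and HNRNPK in RBMS3 cells at 360 min is the one that was also called higher relative to ribosomal protein mRNAs.

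At 360 min, 6 members were lower in both lines: HNRNPA1, SRSF4, SRSF5, SRSF6, SRSF10 and TRA2B. There were 7 without LacZ replicate 2 at 0 min, with HNRNPDL and HNRNPF added and SRSF10 lost. HNRNPF then fell by 0.78 in RBMS3 cells (limma adjusted p 1.79e-05) and by 0.74 in LacZ cells (limma adjusted p 0.000247). HNRNPA1 had 3329.8, 3241 and 2191 at 360 min against 10377, 9568 and 8437 at 0 min in RBMS3 cells, a log2 change of -1.72. In LacZ cells it had 3873, 3843 and 3469.6 at 360 min against 11699, 10683 and 9351 at 0 min, a log2 change of -1.50. It is one of the genes whose table values could not be traced to matched reads, so its value is uncertain. These reads numbered 287 to 1826 in the libraries with an undisputed transcript file. The 75 HNRNPA1 pseudogene rows held 2.01% of its level, and an effect of reads shared among copies was not tested.

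TRA2B had 788, 526 and 717 at 360 min against 1554, 2042 and 1874 at 0 min in RBMS3 cells (log2 change -1.44), and 1028, 594 and 1078 against 1778, 1899 and 1553 in LacZ cells (-0.998). In RBMS3 cells most of this had happened by 90 min, with 976, 838 and 654 (-1.16). As shown above, TRA2B reads also moved to a longer transcript between 90 and 360 min, and the reads behind the 0 min values of RBMS3 cells were not followed. SRSF5 had 469, 537.5 and 515 at 360 min against 1216, 988 and 1059 at 0 min in RBMS3 cells (-1.10). It had 570.4, 849 and 584 against 975, 1785 and 892 in LacZ cells (-0.82, or -0.51 without replicate 2). SRSF4 fell by 0.64 in RBMS3 cells and by 0.58 in LacZ cells, without overlap between 360 and 0 min in either line. SRSF6 fell by 0.45 in RBMS3 cells and by 0.24 in LacZ cells, the second call being lost without any 1 of 3 libraries (LacZ replicate 3 at 0 min, LacZ replicates 1 and 3 at 360 min). SRSF10 fell by 0.65 and 0.50 in RBMS3 and LacZ cells, and its call in LacZ cells was lost without LacZ replicate 2 at 0 min or LacZ replicate 1 at 360 min. These are falls of the length-scaled value. The mean length of SRSF10 was 1678, 1092 and 1338 bases in LacZ cells at 0 min and 2803, 2425 and 2296 in RBMS3 cells at 360 min. It was measured neither in RBMS3 cells at 0 min nor in LacZ cells at 360 min. From 90 to 360 min in RBMS3 cells SRSF10 changed by -0.07 in reads and -0.25 in the table, neither called. Both SRSF4 and SRSF6 are steady members.

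With all libraries HNRNPA2B1, a relative of HNRNPA1, and SRSF9 were called higher at 360 min in both lines. PTBP1 and SRSF9 took this place without LacZ replicate 2 at 0 min. SRSF9 had 1788, 1763 and 1628 at 360 min against 1131, 1237 and 1365 at 0 min in RBMS3 cells (log2 change 0.47). In LacZ cells it had 1540.2, 1661 and 1720.3 against 1297, 773 and 1241 (0.61, or 0.37 without replicate 2). HNRNPA2B1 rose by 0.66 in RBMS3 cells and by 0.37 in LacZ cells, the second value being 0.14 and not called without LacZ replicate 2 at 0 min. These are changes of a table value that its matched reads did not follow, with a log2 change of 0.37 in the table and -0.80 in reads between 90 and 360 min in RBMS3 cells, neither called.

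With all libraries, further members were called higher in RBMS3 cells and not in LacZ cells: HNRNPUL2 by 0.61, HNRNPK by 0.55, HNRNPAB by 0.53, PTBP1 by 0.46 and HNRNPH3 by 0.44. PTBP2, HNRNPDL and SRSF3 fell by 2.01, 0.80 and 1.02 in RBMS3 cells and were not called in LacZ cells. The table value of SRSF3 moves with transcript length as described above. Without LacZ replicate 2 at 0 min PTBP1 also rose in LacZ cells, by 0.24, and HNRNPDL also fell there, by 0.27. PTBP2 had 19.1, 15.0 and 32.4 at 360 min against 81.0, 137 and 61.2 at 0 min in RBMS3 cells, and 17.9, 32.2 and 25.5 against 31.2, 91.8 and 30.3 in LacZ cells. Its matched reads stood at 0, 0 and 0.984 CPM (counts scaled to the library's total) in RBMS3 cells at 360 min, so these table values could not be traced to reads. A call in one line and not in the other does not show a difference between them, which the test of slopes below addresses. In LacZ cells alone, HNRNPA3, SRSF7, SRSF2, PTBP3 and HNRNPUL1 were called higher and HNRNPM lower. HNRNPA3 had 3239.6, 3058 and 3403 at 360 min against 2862, 911 and 2729.55 at 0 min, and SRSF7 had 1346, 1448 and 1594 against 1274, 548 and 1302. Both were low at 0 min in replicate 2 only. Without it the changes of HNRNPA3 (0.21), SRSF7 (0.18), SRSF2 (0.14) and HNRNPM (-0.22) were no longer called, while PTBP3 (0.29) and HNRNPUL1 (0.28) were. Under the ribosomal protein scaling the changes of HNRNPA2B1, HNRNPUL1, PTBP3 and SRSF2 in LacZ cells turned negative.

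**Figure D3:**
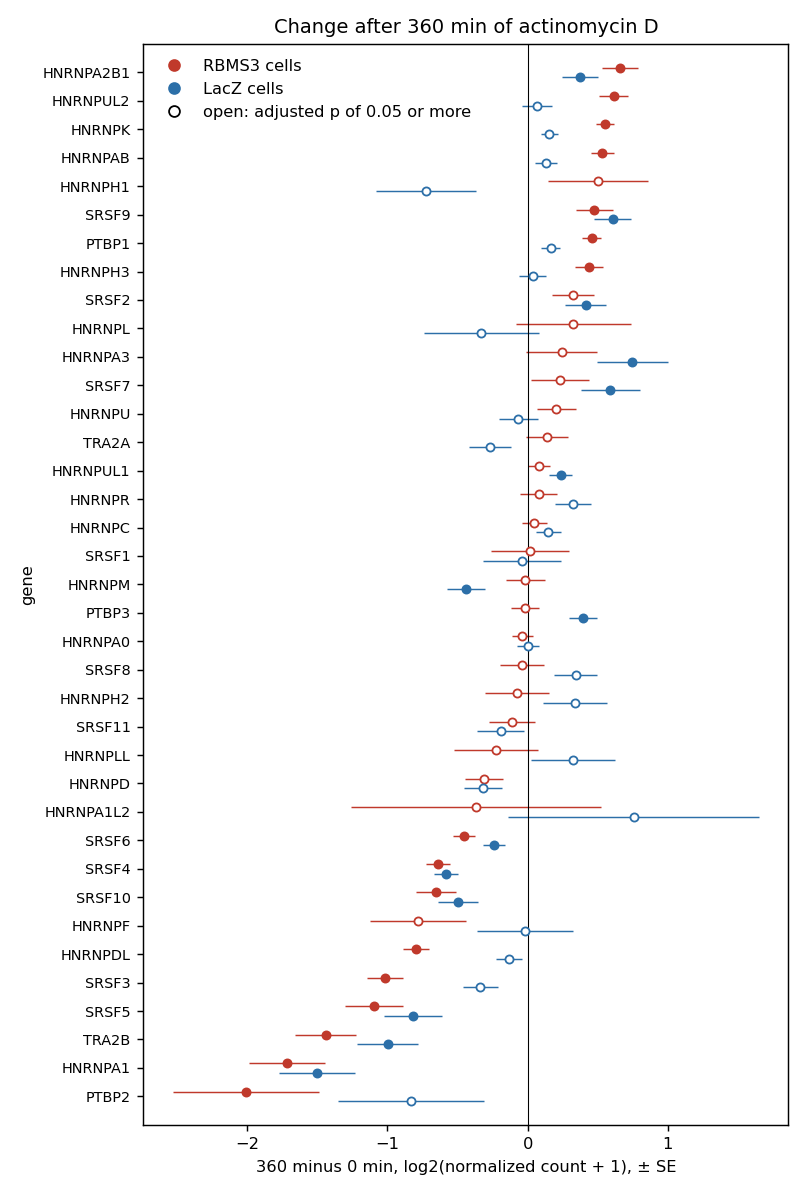
Change from 0 to 360 min of actinomycin D in log2(normalized count + 1) with its SE for the 37 tested members, ordered by the change in RBMS3 cells (red, upper point of each pair) above LacZ cells (blue, lower point), with filled points for a limma adjusted p under 0.05. HNRNPA1, TRA2B and SRSF5 are at the low end with filled points in both lines, and HNRNPA2B1 and SRSF9 are the members filled on the right in both.

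The earlier times had fewer calls. In RBMS3 cells 8 members were called at 90 min (3 higher, 5 lower, beside 14.5% of all genes, 7.99% higher and 6.52% lower). At 180 min 13 were called (5 higher, 8 lower, beside 25.9%, 13.5% higher and 12.4% lower). In LacZ cells 2 were called at 90 min (HNRNPA1 and SRSF10, both lower, beside 6.18% of all genes, 3.44% higher and 2.74% lower). At 180 min 6 were called (3 higher, 3 lower, beside 14.6%, 7.75% higher and 6.87% lower). The count in RBMS3 cells at 90 min was 13 without LacZ replicate 2 at 0 min, which enters the fit through the shared spread, and 3, 4, 5 and 4 without RBMS3 replicates 1 and 2 at 0 min and replicates 1 and 3 at 90 min. At 180 min it was 21 without LacZ replicate 2 at 0 min. The count in LacZ cells at 90 min was 8 and 7 without LacZ replicates 1 and 3 at 0 min, and 1 without LacZ replicate 1 at 90 min. At 360 min in LacZ cells it was 8 and 7 without LacZ replicates 2 and 3 at that time. Scaling to ribosomal protein genes at 180 min gave 3 higher and 10 lower for RBMS3 cells, and 0 higher and 19 lower for LacZ cells.

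**Figure D4:**
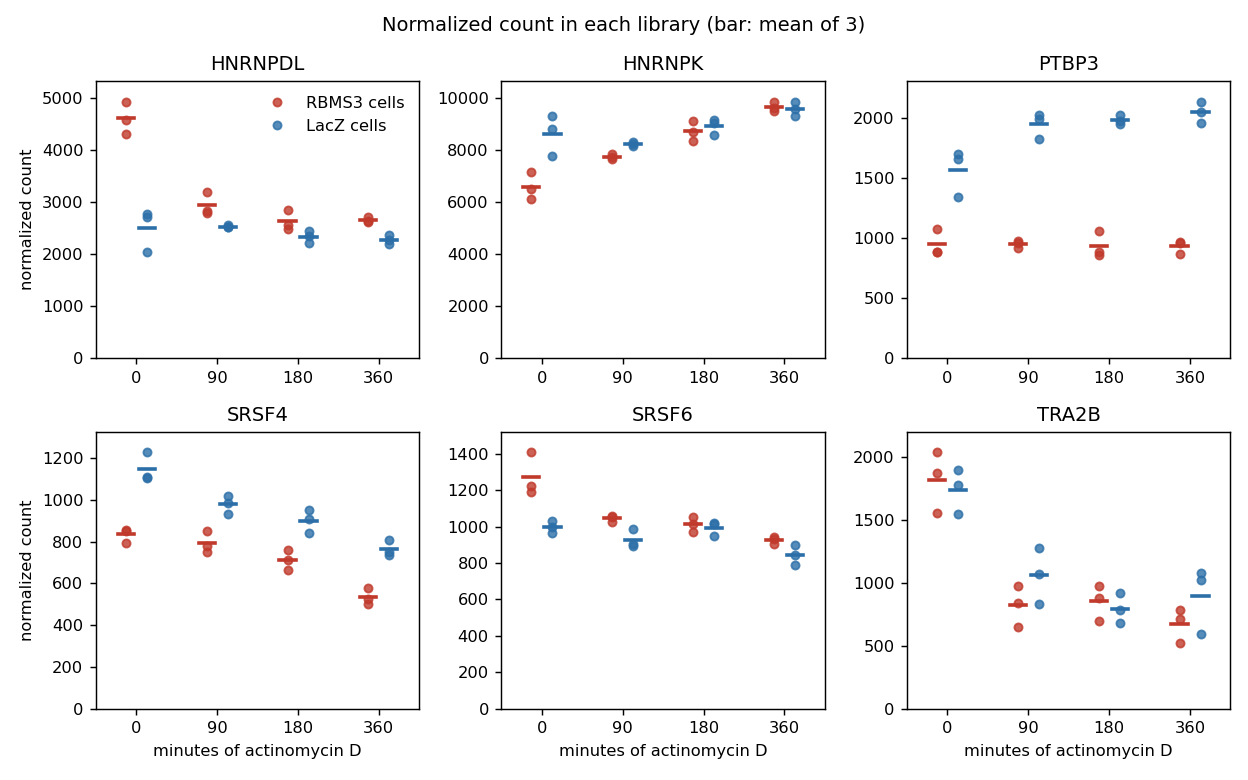
Normalized counts of 6 members in each library (points) with the mean of 3 libraries (bars) by minutes of actinomycin D, RBMS3 cells in red on the left and LacZ cells in blue on the right of each pair, with axes from 0. HNRNPDL is highest in RBMS3 cells at 0 min, PTBP3 and SRSF4 are lower in RBMS3 cells throughout, and TRA2B drops in both lines after 0 min.

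For RBMS3 cells at 360 against 90 min, undisputed transcript files allowed the same comparison on reads. The table called 7 members, 4 higher and 3 lower, beside 16% of all genes (7.62% higher, 8.35% lower). Of these, 5 were steady members, where 30.3% of all steady genes were called. The count was 4 without RBMS3 replicate 1 at 90 min or without replicate 1 or 2 at 360 min, and 12 without LacZ replicate 2 at 0 min. Scaling to ribosomal protein genes gave 0 higher and 18 lower. On the summed estimated reads, edgeR's quasi-likelihood test called 12 members, 7 higher and 5 lower, beside 24.2% of 12364 genes (11.5% higher, 12.7% lower). Among the 30 members whose reads accounted for the table, reads called 11 (7 higher, 4 lower) and limma on the table called 6, with 5 shared: HNRNPK, HNRNPUL2, PTBP1 and SRSF9 higher and SRSF4 lower. The table's calls of HNRNPUL2 and SRSF9 were lost when 1 of several libraries was left out.

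SRSF4 had 71.0, 79.8 and 74.0 CPM (counts scaled to the library's total) at 360 min and 101, 109 and 118 at 90 min, a log2 change of -0.55 in reads and -0.56 in the table. HNRNPK had 1296, 1353 and 1298 CPM at 360 min and 1091, 1077 and 1106 at 90 min, a log2 change of 0.27 in reads and 0.32 in the table. SRSF3 was called by the table alone. Its table value fell by 0.58, while its reads stood at 406, 422 and 386 CPM at 360 min and 407, 447 and 429 CPM at 90 min, overlapping, with a log2 change of -0.08 (edgeR adjusted p 0.366). Over the same interval the share of SRSF3 reads on its transcript of 4228 bases was 98.5%, 96.3% and 94.5% at 360 min and 87.6%, 91.8% and 89.6% at 90 min. TRA2B differed between the scales too, without a call in either, with a log2 change of 0.16 in reads and -0.28 in the table. The share of its transcript of 4178 bases was 90.7%, 95.2% and 89.9% at 360 min and 71.5%, 77.5% and 86.2% at 90 min.

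Reads alone called HNRNPF, SRSF5 and HNRNPA0 lower and HNRNPH1, HNRNPC and HNRNPUL1 higher. HNRNPF had 147, 130.2 and 142 CPM at 360 min and 245, 255 and 205 CPM at 90 min, a log2 change of -0.75 (edgeR adjusted p 1.18e-05). Its table value fell by a similar 0.70, but the spread shared over all groups held the 544 of LacZ replicate 2 at 0 min, and limma gave an adjusted p of 0.192. SRSF5 had 67.3, 68.1 and 74.5 CPM at 360 min and 117, 109 and 124 CPM at 90 min, a log2 change of -0.74. The annotated coding transcript of SRSF5 took 60.2%, 54.9% and 55.7% of its reads at 360 min and 74.1%, 81.4% and 63.6% at 90 min. Reads of HNRNPF, SRSF5 and SRSF4 thus fell without overlap between the times.

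**Figure D5:**
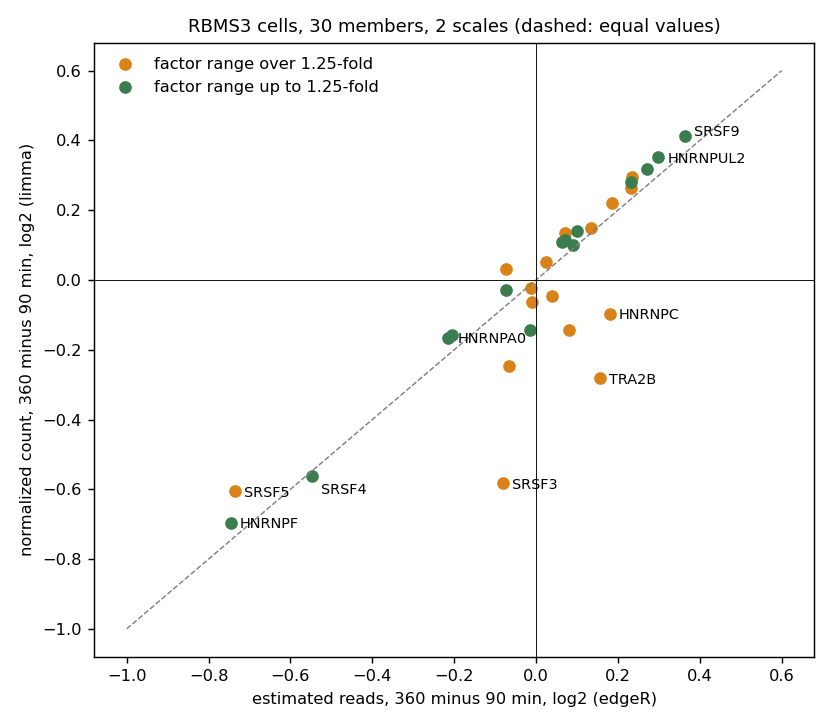
Log2 change from 90 to 360 min in RBMS3 cells for 30 members, in estimated reads (edgeR, x axis) and in the length-scaled normalized count (limma, y axis), green for the steady members, orange for the others, with a dashed line where both are equal. Green points lie along the line, and SRSF3 and TRA2B lie well below it, at -0.58 and -0.28 in the table against -0.08 and 0.16 in reads.

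Whether a member's course differed between the lines was tested as a difference of slopes over 0, 1.5, 3 and 6 h. It was called for 3 of 37 members, 8.11% beside 5.18% of all genes, with 1 higher (2.93% of all genes) and 2 lower (2.24%). By linear slope HNRNPDL fell faster in RBMS3 cells, with -0.115 log2 per hour against -0.025 in LacZ cells. The difference of -0.09 (SE 0.021, limma adjusted p 0.0142) kept its call in all settings and with any 1 library left out. In RBMS3 cells HNRNPDL had fallen by 0.65 by 90 min and by 0.80 by 360 min. Its change from 90 to 360 min (-0.14) was not called, and its length factor was unmeasured in RBMS3 cells at 0 min. HNRNPK rose faster in RBMS3 cells, with 0.089 per hour against 0.032 in LacZ cells, a difference of 0.06 (SE 0.014, limma adjusted p 0.0206). Its call was lost without RBMS3 replicate 1 at 0 min, RBMS3 replicate 2 at 360 min or LacZ replicate 2 at 360 min. SRSF3 fell faster in RBMS3 cells in the length-scaled table, with -0.163 against -0.061 per hour in LacZ cells, a difference of -0.10 (SE 0.029, limma adjusted p 0.042). Its call was lost without any 1 of 16 libraries, without a filter and under the ribosomal protein scaling, with an adjusted p of up to 0.121 when a library was left out or a setting changed. The count of slope calls was 5 without LacZ replicate 2 at 0 min and 1 without RBMS3 replicate 1 at 0 min or LacZ replicate 2 at 360 min, and 6 (5 higher, 1 lower) under the ribosomal protein scaling. Both HNRNPDL and HNRNPK differed between the lines at 0 min and neither was called between them at 360 min with all libraries, while HNRNPDL was called there without LacZ replicate 2 at 0 min (0.22).

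Genes that work with these factors were counted from lists, to be read beside the shares of all genes called. These were 19.1% higher and 18.6% lower by 360 min in RBMS3 cells, 14.9% and 13.6% in LacZ cells, and 18.6% and 18.9% for RBMS3 minus LacZ at 0 min. Counts without LacZ replicate 2 at 0 min and under the ribosomal protein scaling were added after seeing the data. Of 10 tested SR protein kinases and importers, 7 fell and 3 rose by 360 min in RBMS3 cells, and 6 fell and 1 rose in LacZ cells, with median log2 changes of -0.85 and -0.81, while the medians of all genes were -0.006 and 0.029. Under the ribosomal protein scaling 7 fell and 1 rose in RBMS3 cells, and 8 fell and 0 rose in LacZ cells. CLK2, a nuclear kinase of SR proteins, averaged 32.9 ± 11.3 normalized counts at 360 min against 134 ± 14.1 at 0 min in RBMS3 cells, and 16.5 ± 10.9 against 119 ± 14.5 in LacZ cells (SD, n = 3 each). CLK1, CLK4 and DYRK1A, a related kinase, also fell in both lines. At 0 min 3 of these 10 genes were lower in RBMS3 cells and 0 higher, or 2 and 0 without LacZ replicate 2. SRPK1, the cytoplasmic SR protein kinase, led them with 705 ± 207 in RBMS3 cells against 1956 ± 441 in LacZ cells (SD, n = 3 each; log2 difference -1.49, limma adjusted p 1.06e-05).

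Core spliceosome genes were called higher more often than lower by 360 min. Of 41 genes for snRNP proteins and other core subunits, 23 rose and 1 fell by 360 min in RBMS3 cells (median log2 change 0.42), and 20 rose and 1 fell in LacZ cells (0.32). The direction did not hold under the ribosomal protein scaling, which gave 8 higher and 9 lower in RBMS3 cells (median 0.03) and 0 higher and 19 lower in LacZ cells (median -0.24). Without LacZ replicate 2 at 0 min the counts were 26 and 3 in RBMS3 cells and 17 and 2 in LacZ cells. SF3B5, a small subunit of the branch-site complex SF3B, averaged 3997 ± 244 at 360 min against 1932 ± 204 at 0 min in RBMS3 cells, and 3125 ± 189.7 against 2765 ± 429 in LacZ cells (SD, n = 3 each). Its slope difference of 0.13 log2 per hour (limma adjusted p 0.000818) was the largest among 6 core genes called with a higher slope in RBMS3 cells, beside 1 with a lower slope, where 2.93% and 2.24% of all genes were called. Without LacZ replicate 2 at 0 min 11 core genes had a higher and 2 a lower slope.

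Before treatment, 42 other splicing regulators split into 5 with higher and 11 with lower counts in RBMS3 libraries, beside 18.6% higher and 18.9% lower of all genes. Their median log2 difference was -0.223, against 0.007 in all genes, and -0.152 without LacZ replicate 2 at 0 min. The ribosomal protein scaling gave 2 higher and 25 lower. ESRP1, which maintains epithelial splicing, was listed at 0 in all RBMS3 libraries at 0 min and averaged 903 ± 132 in LacZ cells. ESRP2, its paralog, averaged 50.1 ± 12.1 in RBMS3 cells and 168 ± 36.2 in LacZ cells, a log2 difference of -1.73. NOVA1 and NOVA2, known from neurons, were higher in RBMS3 cells at low levels, 44.7 ± 38.0 against 5.55 ± 4.84 and 16.6 ± 4.39 against 0.193 ± 0.334 in LacZ cells (SD, n = 3 each). Among 14 nonsense-mediated decay factors, 1 had a higher and 7 had a lower level in RBMS3 libraries at 0 min, with SMG5 at a log2 difference of -1.42; without LacZ replicate 2 these were 1 and 6. After 360 min 4 rose and 4 fell in RBMS3 cells, and 0 rose and 4 fell in LacZ cells, SMG1 and SMG8 falling in both. The counts for LacZ cells were 1 and 2 without LacZ replicate 2 at 0 min, and 0 and 8 under the ribosomal protein scaling, which gave 1 and 5 in RBMS3 cells.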

How the data were processed

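QuantSeq libraries of 75-base single reads were made from 24 HMLE samples, 8 groups of 3 taken from titles and treatment labels. Trimming, quantification and normalization tools named in the submitters' notes are Salmon 1.4.0, Trim Galore 0.6.6 and DESeq2 1.32.0; the sources used here give neither genome build nor annotation. The authors deposited a table of normalized counts, a signal that is not whole reads, for 38849 genes. Per the file headers, each library has a deposited file of 231288 transcripts with estimated counts and TPM, and 88.4% of transcripts with 95.1% to 95.7% of estimated reads matched GENCODE v29. Each of the 24 transcript files was closest to the table column that bears its name (r between 0.922 and 0.941 over 11824 genes, next best at most 0.913). The 12 files whose name differs from the sample's title were used only for this check, the read totals and the matched shares.

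From the table, log2(normalized count + 1) was fitted by limma 3.58.1 under R 4.3.3 (with trend, 8 group means in 1 fit, genes with a mean of at least 10, Benjamini-Hochberg adjustment over 12096 genes, call at an adjusted p under 0.05), for 12 comparisons. Slopes are linear contrasts over time in hours. Estimated counts were rounded, summed over genes and tested with edgeR 4.0.16 and DESeq2 1.42.0 in the 9 RBMS3 libraries at 90, 180 and 360 min, and TPM and effective lengths gave the mean length. The limma and edgeR fits were tested on simulated data.

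Named with values per library were the 6 members with the largest called difference in each comparison and the 3 with the highest and lowest means; any member could be named by its difference. HNRNPF and its library values were singled out after they were seen. The members and lists were chosen with earlier results of these data known. Counting error is covered neither by the spread nor by a separate interval. Replicate numbers were not used to pair samples in the main fit, and the labels do not say whether they do.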

Additional observations from a re-analysis of the deposited data

Results flagged for a closer look

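The slope over time differed between the lines for 3 members by the interaction test of limma. HNRNPDL had a slope difference of -0.09 log2 per hour, RBMS3 minus LacZ, from -0.115 in RBMS3 cells and -0.025 in LacZ cells. Its value in RBMS3 cells had fallen by 0.65 by 90 min, and its change from 90 to 360 min (-0.14) was not called. HNRNPK had a slope difference of 0.06, from 0.089 in RBMS3 cells and 0.032 in LacZ cells. SRSF3 had a slope difference of -0.1, from -0.163 in RBMS3 cells and -0.061 in LacZ cells, in a table value that also moved with transcript length. The SRSF3 call was lost without any 1 of 16 of the 24 libraries, without a filter and under the ribosomal protein scaling, with an adjusted p of up to 0.121. That of HNRNPK was lost without any 1 of 3 libraries, and that of HNRNPDL was kept throughout.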

How the results depend on the processing

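The 12 counts of called members were recomputed under 8 other settings and with each of 24 libraries left out. Counts that moved by over 1.5 times were these. Without a filter, LacZ cells at 360 against 0 min gave 9 members, and with a mean of at least 50, LacZ cells at 90 against 0 min gave 4. Scaling to 79 ribosomal protein genes gave 20 for RBMS3 minus LacZ at 0 min, 9, 19 and 23 for LacZ cells at 90, 180 and 360 min, 6 slope differences and 18 for RBMS3 cells at 360 against 90 min, a comparison for which edgeR and DESeq2 on reads gave 12 each. A replicate block gave 4 for LacZ cells at 90 against 0 min. Same-numbered libraries hardly deviated together (r -0.082 to 0.116 over 33 pairs, over 0.1 in 1). Of 24 libraries, 12 were closest to their own number among the 3 replicate numbers. A low r cannot exclude shared cultures or batches, so whether the numbers pair libraries is not known.

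With 1 library left out, the counts ranged from 12 to 17, 3 to 10, 7 to 14 and 5 to 9 for RBMS3 minus LacZ at 0, 90, 180 and 360 min. They ranged from 3 to 13, 12 to 21 and 16 to 21 for RBMS3 cells and from 1 to 8, 4 to 9 and 7 to 15 for LacZ cells at 90, 180 and 360 min against 0 min. They ranged from 1 to 5 for slopes and from 4 to 12 for RBMS3 cells at 360 against 90 min.

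For the 103 single calls, 788 of 836 recomputed values under other settings kept call and direction, 39 lost the call and 9 reversed, all 9 under the ribosomal protein scaling. These were PTBP3 (-0.0201) in LacZ cells at 180 min, HNRNPA2B1 (-0.18), HNRNPUL1 (-0.32), PTBP3 (-0.16) and SRSF2 (-0.14) in LacZ cells at 360 min, and HNRNPK (-0.10), HNRNPUL2 (-0.0663), PTBP1 (-0.14) and SRSF9 (-0.006) in RBMS3 cells at 360 against 90 min. With 1 library left out, 2330 of 2472 kept the call, 142 lost it and 0 reversed. The causes were not tested. Reads behind the table were not followed in the 12 libraries with a disputed file, so the length factor is unmeasured for RBMS3 cells at 0 min and LacZ cells after 0 min.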

Other observations

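The split of a member's reads between annotated transcripts gave a further view of these genes in the 12 libraries with an undisputed file. It is Salmon's estimate from 3' reads and was not tested. For TRA2B, transcripts not annotated as protein coding took 4.5%, 4.8% and 3.0% of reads in RBMS3 cells at 360 min and 5.4%, 5.4% and 7.8% at 90 min, against 23.9%, 44.6% and 21.4% in LacZ cells at 0 min. A retained-intron transcript of 538 bases held most of this in LacZ cells. For SRSF10 such transcripts took 10.0% to 17.1% in RBMS3 cells after actinomycin D and 24%, 33.5% and 35.7% in LacZ cells at 0 min. SRSF5 ran the other way over time. Its share was 34.9%, 43.1% and 44.3% in RBMS3 cells at 360 min and 24.7%, 15.2% and 34.3% at 90 min, against 11.4%, 58.8% and 13.2% in LacZ cells at 0 min. RBMS3 cells and LacZ cells share no time in these 12 libraries, so line and time cannot be told apart where the 2 lines are set side by side.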
